A study of Macaca fascicularis with 2 samples.

Results

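The 5 angiopoietin-like genes, ANGPTL1, ANGPTL2, ANGPTL4, ANGPTL5 and ANGPTL7, were followed through single cells of cynomolgus monkey joint cartilage and intervertebral disc. They are 5 of the 21371 genes listed in the count matrix, taken by name. The cells were selected on their KRT19 and TBXT reads, and the genes were chosen by name with their levels in these cells already known, so the levels are a description without a test. The cells came from articular cartilage (AC) and nucleus pulposus (NP), the gel-like centre of the disc, of 2 wild-type male monkeys aged 3 years, and no treatment was given. All were sequenced together as 1 library with the terminator-assisted TAS-seq method, and 4 sample tags (A951, A952, A953 and A954) mark where a cell came from. The labels name 3 tissue samples (AC3, NP3 and AC4) against 4 tags and pair no tag with a tissue or a monkey. It cannot be told whether A951 and A952, read side by side here, are separate samples. The tags are therefore reported one by one and a tag is not called AC or NP.

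Of 5723 columns in the matrix, 5674 cells carried 1 tag. A cell with 5 or more reads of KRT19, a keratin, and 5 or more of TBXT, the notochord transcription factor brachyury, was taken as a notochordal NP cell (NC). This rule gave 310 NCs, 5.46% of the cells (95% Clopper-Pearson interval 4.89 to 6.09). A951 held 67 of them, A952 held 236, A953 held 5 and A954 held 2. The remaining 5364 cells, called other cells, numbered 930, 896, 1378 and 2160 under the 4 tags. Among the other cells, 85 had 5 or more reads of 1 of the genes of the rule but not of both. The median NC held 186370 reads and 4061 detected genes, the median other cell 198674 reads and 3815.5 genes, and the median mitochondrial share was 1.35% and 1.46%. The 5 NCs of A953 were deeper, with a median of 494207 reads and 6612 genes.

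Angiopoietin-like proteins are secreted glycoproteins built like the angiopoietins, with a coiled-coil stretch at one end and, in most members, a fibrinogen-like domain at the other. They do not bind the angiopoietin receptor TEK and act through other partners. ANGPTL4 is best known as an inhibitor of lipoprotein lipase and as a target of hypoxia and of the PPAR and glucocorticoid receptors. ANGPTL2 is linked to integrin signalling and inflammation, ANGPTL7 to the extracellular matrix of the eye, and ANGPTL1 to the restraint of vessel growth. The role of ANGPTL5 is less well known.

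The NC class carried further notochordal genes that the rule did not use. SHH, the hedgehog ligand, was at 98.7 reads per 1000000 reads (rpm) in NCs and 0.846 rpm in other cells, and CDH2, a cadherin, at 119.6 against 1.16 rpm. NCAM1, a neural adhesion molecule, was at 506.5 against 25.2 rpm. NOTO, a notochord transcription factor, was below the filter used here, and KRT8, KRT18 and CD24 were not analysed. Other cells were of a cartilage type: COL2A1, type II collagen, was at 20076 rpm in them and 1269 rpm in NCs, while ACAN, aggrecan, was at 3967 and 14440 rpm. Of the further reference genes, SOX9, the chondrogenic transcription factor, had a log2 ratio of NCs over other cells of 1.69, MGP, an inhibitor of mineralisation, of -4.003, and the cartilage matrix genes CILP and CRTAC1 of -5.72 and -2.52. Within A951 and A952, SOX9 had 0.40 and 1.97, and MGP -3.82 and -4.87. CILP had -4.82 and -5.36 there, and CRTAC1 -3.94 and -1.29. Of the 28937 MGP reads of NCs, 16219 lay in the 5 NCs of A953. Those 5 had MGP at 7151 rpm and PRG4, lubricin, at 16346 rpm. The other cells of A953 had 10634 and 16322 rpm. Whether the 5 are mixed cells was not tested. Levels here are the reads of a gene over all cells of a class per 1000000 reads of that class, so they can be compared between classes but not between genes, whose transcript lengths were not analysed. Reads are not single molecules, since no molecular identifiers were counted, and all intervals cover counting error only.

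ANGPTL7 was the member found almost solely in NCs. It was at 47.5 rpm in NCs and 0.299 rpm in other cells, a log2 ratio of 7.31. Among 11617 genes with 5 or more reads in at least 10 cells, 13 had a higher ratio. TBXT and KRT19, whose reads define the class, were among those 13. ANGPTL7 passed this filter only through its NCs, so the rank describes the gene and gives no separate support. 5 or more reads were found in 44 of 310 NCs, or 14.2% (95% Clopper-Pearson interval 10.5 to 18.6), and in 6 of 5364 other cells, or 0.112% (0.0411 to 0.243). The gene therefore marked a minority of the class. At least 8-fold higher levels in NCs were seen for 4.37% of the genes, and at least 2-fold higher levels for 25.7%.

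By tag, ANGPTL7 was at 73.1 rpm in the NCs of A951 and 43.7 rpm in those of A952. In all, 13 of 67 and 31 of 236 NCs had 5 or more reads, 19.4% (10.8 to 30.9) and 13.1% (9.10 to 18.1), so the intervals overlapped. The 5 NCs of A953 held 3 reads in all and the 2 of A954 held none, too few cells to give a level. In other cells the gene was at 0.662, 1.20, 0.0420 and 0.0337 rpm under A951, A952, A953 and A954. The log2 ratio within a tag was 6.79 for A951 and 5.19 for A952. Both tags that held 20 or more NCs thus showed at least 2-fold more ANGPTL7 in NCs, as did 16.8% of 11613 genes.

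The 6 other cells with ANGPTL7 all stood at the border of the rule. A951 and A952 held 3 each, and each had 5 or more reads of only 1 of the genes of the rule. Of these, 5 had from 41 to 376 KRT19 reads with 0 to 2 TBXT reads, and the sixth had 251 TBXT reads and no KRT19 read. In the 85 cells that held 5 or more reads of a single gene of the rule, ANGPTL7 was at 18.9 rpm and in 7.06% of cells (2.63 to 14.7). In the 5279 cells with fewer than 5 reads of either, it was at 0.0341 rpm and 0 cells had 5 reads, which allows a share of up to 0.0568%. Against these cells alone, the log2 ratio was 10.4. That group leaves out the 6 cells above, so its ratio is higher by the way the group was cut. With 20 or more reads of both genes required of an NC, the ratio was 6.28. With all other cells but without the cells of A952 it was 8.66. A single read or more was seen in 0.932% of other cells, and by tag in 0.860% to 1.02%, against 18.1% of NCs. This low share was much alike under all 4 tags, also under A953 and A954, where no other cell had more than 1 read.

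Within NCs the reads of ANGPTL7 were unevenly held. NCs with 5 or more reads had a median of 48 reads, the highest cell had 327, and 9 cells held 50% of the class's 3140 reads. The 44 positive NCs had more reads in all than the 266 others, with medians of 233470 and 179076, but this order was turned within A951 (138981 against 161906). Its share was similar with and without SHH: 12 of 72 NCs with 5 or more SHH reads had it, 16.7% (8.92 to 27.3), and 32 of 238 without, 13.4% (9.38 to 18.4). KRT19 was at 986.5 rpm in ANGPTL7-positive NCs and 1122 rpm in the rest, and TBXT at 742.6 and 921.9 rpm. ANGPTL2 was present in 43.2% (28.3 to 59.0) of the former and 38.3% (32.5 to 44.5) of the latter. None of these shares had intervals that stood apart.

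**Figure D1:**
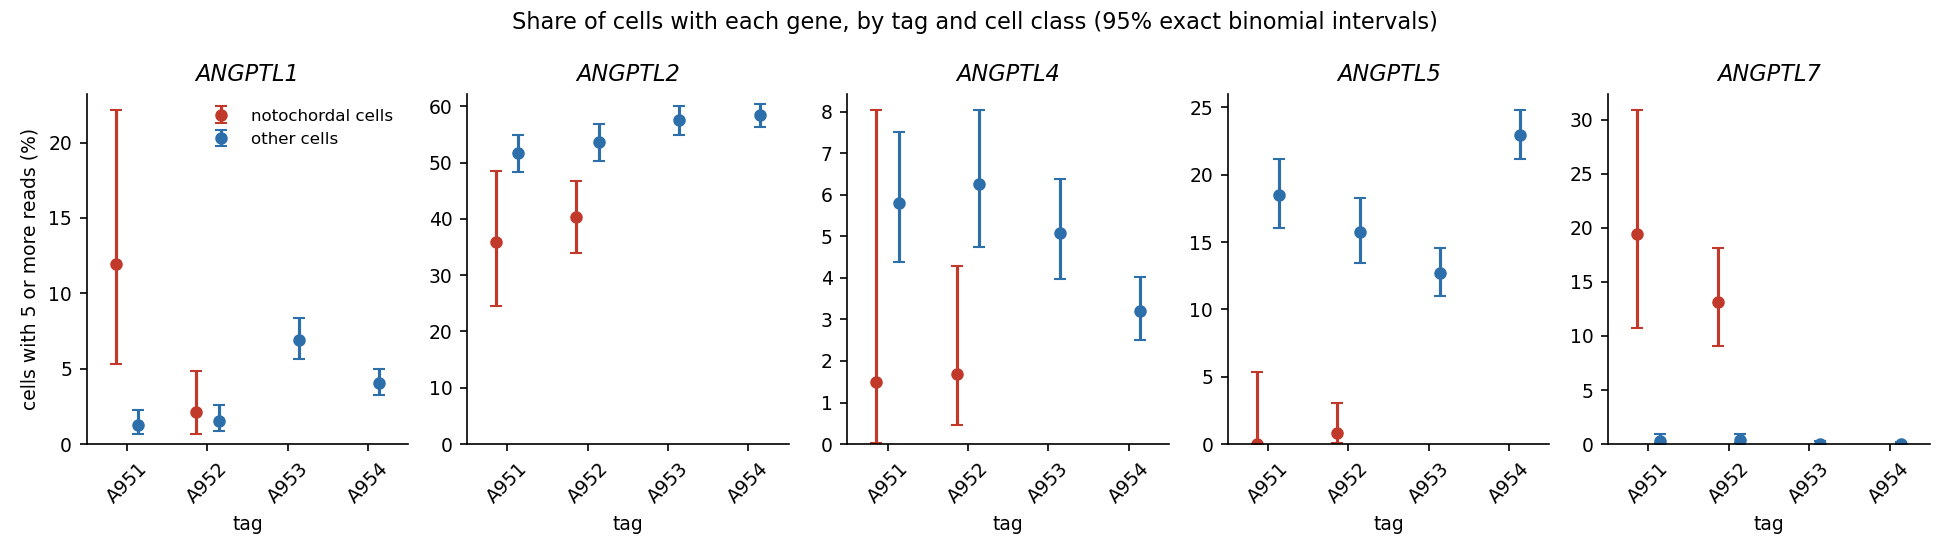
Share of cells with 5 or more reads of each gene (y axis, %) under each tag (x axis) in notochordal (red) and other (blue) cells, with 95% exact binomial intervals that cover counting error only; the y axes differ between panels. NCs of A953 and A954 (5 and 2 cells) are not drawn. ANGPTL7 was in 19.4% and 13.1% of the NCs of A951 and A952 and near 0 in other cells, and ANGPTL5 showed the opposite arrangement.

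ANGPTL5 had the reverse pattern, with levels in other cells far above those in NCs. It was at 36.9 rpm in other cells and 1.59 rpm in NCs, a log2 ratio of -4.54, and 122 of the 11617 genes had a lower one. When a cell with 5 or more reads of either KRT19 or TBXT was taken as an NC, the ratio was -2.55. At least 8-fold lower levels in NCs were seen for 4.11% of genes, and at least 2-fold lower ones for 14.4%. In all, 984 other cells, 18.3% (17.3 to 19.4), had 5 or more reads, and 2 NCs did, 0.645% (0.0782 to 2.31). With a single read counted as presence, the shares were 31.8% and 13.5%, but 40 of the 42 NCs so counted had only 1 to 4 reads.

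Under the 4 tags ANGPTL5 was at 38.2, 38.3, 26.4 and 42.0 rpm in the other cells of A951, A952, A953 and A954. It was found in 18.5%, 15.7%, 12.7% and 22.96% of them. A954 stood highest (21.2 to 24.8), just clear of the interval of A951 (16.05 to 21.1), while A951 and A952, and A952 and A953, overlapped. The cells of A954 were the deepest, with a median of 220670 reads. In cells thinned to 50000 reads the shares with 1 or more reads under A954, 26.9% (24.995 to 28.8), and A951, 22.7% (19.999 to 25.6), overlapped. A954 still stood highest there, clear of A952, 20.4% (17.8 to 23.3), and of A953, 16.3% (14.4 to 18.4). The highest and lowest tags differed 1.59-fold in level, and the median gene differed 1.43-fold. In NCs the gene was at 0.901 rpm under A951, where 0 of 67 cells had 5 reads (a count of 0 allows up to 4.48%), and at 1.73 rpm under A952. The log2 ratios within those tags were -5.41 and -4.47, and 11.0% of 11613 genes were at least 2-fold lower under both. Of the 5364 other cells, 210 (3.91%) held 50% of its reads, and the highest cell had 338.

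ANGPTL4, the lipase inhibitor, was also lower in NCs, but its reads came from very few cells. It was at 26.9 rpm in other cells and 3.30 rpm in NCs, a log2 ratio of -3.03, with 467 genes lower. 5 or more reads were present in 249 other cells, 4.64% (4.09 to 5.24), and in 5 NCs, 1.61% (0.526 to 3.72). The intervals of NCs and other cells overlapped within A951, at 1.49% (0.0378 to 8.04) and 5.81% (4.39 to 7.51), and stood apart within A952, at 1.69% (0.464 to 4.28) and 6.25% (4.76 to 8.04). Only 33 other cells, 0.615% of the class, held 50% of its 34430 reads, and the highest held 1285. In NCs 1 cell with 121 of the 218 reads held more than 50%. Without the highest cell of each class the log2 ratio was -4.13. When a cell with 5 or more reads of either KRT19 or TBXT was taken as an NC, it was -1.07, and without the cells of A952 it was -4.72.

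**Figure D2:**
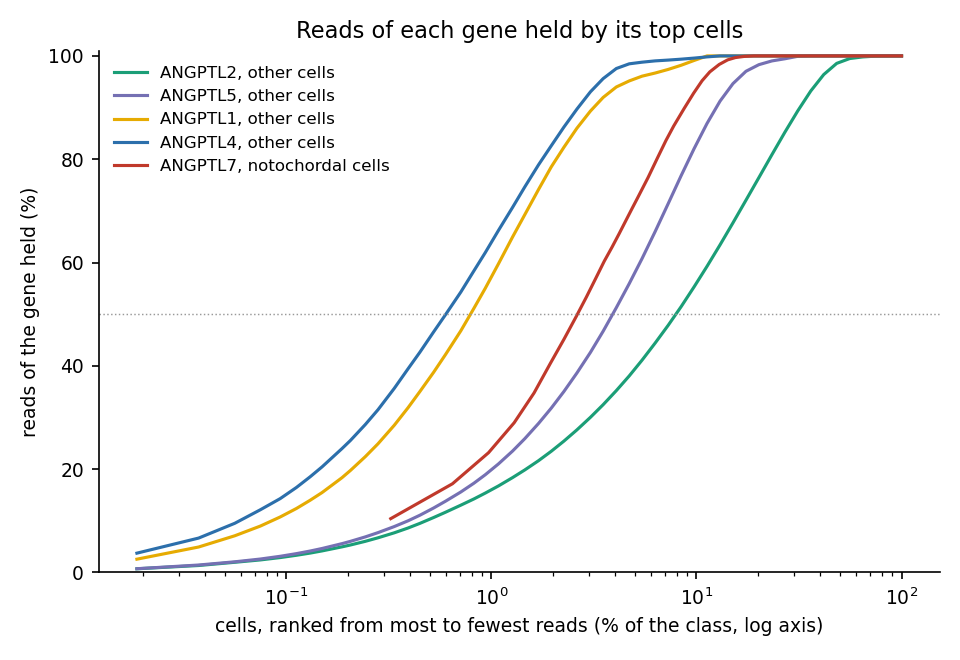
Share of a gene's reads (y axis, %) held by the cells with most reads of it (x axis, % of the class on a log axis), for ANGPTL1, ANGPTL2, ANGPTL4 and ANGPTL5 in 5364 other cells and ANGPTL7 in 310 NCs; the dotted line marks 50%. Of the ANGPTL4 reads, 50% lay in 0.615% of other cells, and of the ANGPTL2 reads, 50% lay in 7.96%.

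By tag, ANGPTL4 was at 36.0, 49.5, 29.0 and 15.3 rpm in the other cells of A951, A952, A953 and A954. The highest and lowest tags differed 3.24-fold, and 21.7% of genes differed at least 2-fold in this way. The shares with 5 or more reads ran in the same order of tags, from 6.25% (4.76 to 8.04) under A952 through 5.81% and 5.08% to 3.19% (2.49 to 4.03) under A954. The intervals of A952 and A954 stood apart, and neighbours in the order overlapped. In NCs the level was 1.07 rpm under A951 and 3.99 rpm under A952, and the log2 ratios within the tags were -5.08 and -3.63. None of the 5 NCs of A953 or the 2 of A954 had a read.

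**Figure D3:**
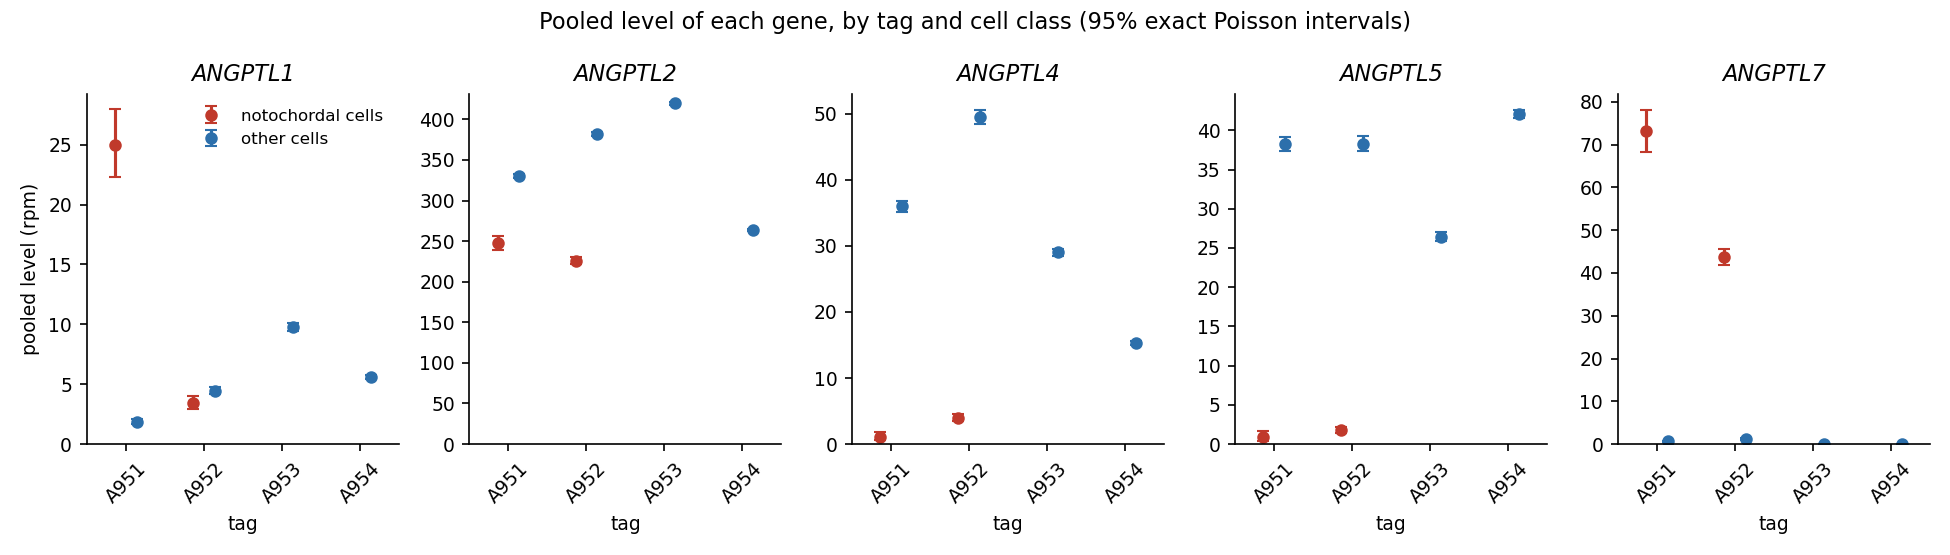
Pooled level of each gene (y axis, rpm) under each tag (x axis) in notochordal (red) and other (blue) cells, with 95% exact Poisson intervals of the read counts, which cover counting error only and not the spread between cells; the y axes differ between panels. NCs of A953 and A954 are not drawn. ANGPTL4 in other cells ran from 15.3 rpm (A954) to 49.5 rpm (A952), and ANGPTL1 stood at 24.995 rpm in the NCs of A951 and 3.45 rpm in those of A952.

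ANGPTL2, the integrin-linked member, was present in both classes and somewhat lower in NCs. It was at 331.6 rpm in other cells and 223.7 rpm in NCs, a log2 ratio of -0.57, which is short of 2-fold. The median gene had a ratio of 0.29, and relative to it ANGPTL2 was at -0.86. 5 or more reads were found in 56.2% (54.8 to 57.5) of other cells and 39.0% (33.6 to 44.7) of NCs. The pooled classes differ in their tags, and NCs and other cells had 35.8% (24.5 to 48.5) and 51.6% (48.3 to 54.9) within A951, which overlapped, and 40.3% (33.9 to 46.8) and 53.6% (50.2 to 56.9) within A952. In other cells the levels were 330.4, 382.1, 419.6 and 263.9 rpm under A951, A952, A953 and A954, and the shares 51.6%, 53.6%, 57.5% and 58.4%. The shares of neighbouring tags overlapped, and those of A951 (48.3 to 54.9) and A954 (56.3 to 60.5) did not. In cells thinned to 50000 reads the shares with 1 or more reads were 61.7% (58.5 to 64.9) under A951 and 66.0% (63.9 to 67.995) under A954, which overlapped, and A953 stood highest with 67.3%. In NCs it was at 247.2 rpm under A951 and 225.9 rpm under A952, and the log2 ratios within the tags were -0.42 and -0.76. Its reads were the most evenly held of the 5, with 50% of them in 427 of 5364 other cells and in 21 of 310 NCs.

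ANGPTL1 was within 2-fold between the classes when tags were pooled, and its ratios within tags had opposite signs. It was at 7.55 rpm in NCs and 5.95 rpm in other cells, a log2 ratio of 0.35, near the median gene. Without the highest cell of each class it was 0.0013. 5 or more reads were found in 14 of 310 NCs, 4.52% (2.49 to 7.46), and 209 of 5364 other cells, 3.90% (3.39 to 4.45). Under A951 the level in NCs was 24.995 rpm, from 8 of 67 cells, and 2 cells held 50% of the reads. Under A952 it was 3.45 rpm, from 5 of 236 cells. The log2 ratio was 3.75 within A951 and -0.37 within A952, and over the other tags it was -0.90 without A951 and 1.82 without A952. Opposite signs with at least 4-fold between the tags were seen for 7.78% of 11613 genes.

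In other cells ANGPTL1 differed most by tag among the 4 members that these cells carried. It was at 1.86 rpm under A951, 4.45 rpm under A952, 9.79 rpm under A953 and 5.598 rpm under A954, so the highest was 5.28-fold above the lowest. The shares with 5 or more reads were 1.29% (0.668 to 2.24), 1.56% (0.857 to 2.61), 6.89% (5.61 to 8.36) and 4.07% (3.28 to 5.00). A951 and A952 overlapped, and A953, A954 and the first pair stood apart from each other. The 2 tags with the higher shares were those with 5 and 2 NCs.

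**Figure D4:**
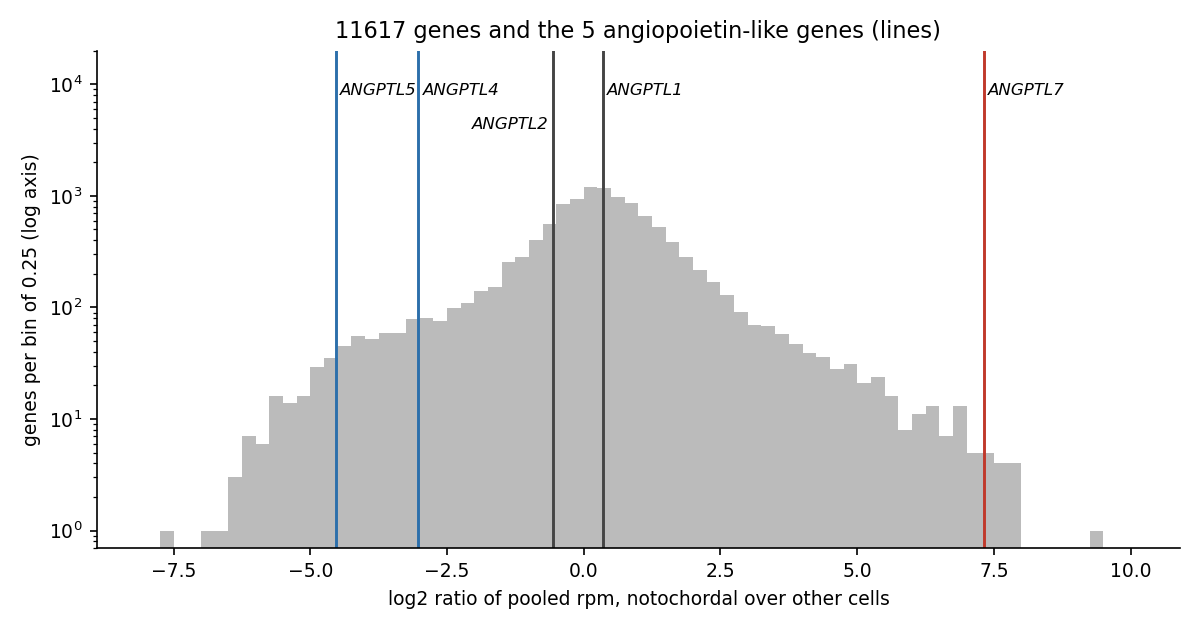
Number of genes (y axis, log scale) in bins of 0.25 of the log2 ratio of pooled rpm, notochordal over other cells (x axis), for 11617 genes, with lines at the 5 angiopoietin-like genes. ANGPTL7 lay at 7.31 at the upper end, ANGPTL5 and ANGPTL4 at -4.54 and -3.03 in the lower tail, ANGPTL2 at -0.57, and ANGPTL1 at 0.35 near the median of 0.29.

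The members were also compared with each other cell by cell, after every cell was thinned to 50000 reads and 1 read or more was counted as presence, which left 5159 other cells and 299 NCs. In other cells 24.7% held no member, 52.0% held 1, 21.7% held 2 and 1.53% held 3. Another 4 cells held 4 and none held all 5. Of NCs, 37.5% held none, 45.8% held 1 and 15.4% held 2. ANGPTL5 was in 24.7% of other cells with ANGPTL2 and 18.2% of those without. By tag this held for A951 (27.2% against 15.5%), A953 (19.05% against 10.7%) and A954 (29.0% against 22.8%), whereas A952 had 20.4% against 20.6%. ANGPTL1 was in 3.11% of cells with ANGPTL5 and 6.05% of those without. That order was seen under A953 (4.67% against 9.85%) and A954 (3.19% against 6.45%), but the A953 intervals overlapped (2.26 to 8.43 and 8.15 to 11.8). A951 had 2.46% in both, and A952 had 1.71% (0.355 to 4.93) against 2.64% (1.57 to 4.15). ANGPTL4 was in 7.18% of cells with ANGPTL2 and 6.996% of those without.

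The share of cells with each member was also read along 2 main cartilage genes. Other cells were ranked within each tag by thinned reads of PRG4, lubricin, a product of superficial cartilage cells, and cut into 4 equal bins of 1288 to 1291 cells. The bins are ranges of a continuous value, not cell types. PRG4 was taken because it had the lowest correlation with ANGPTL2 and ANGPTL5, and COL2A1 because it had the lowest with ANGPTL1, given below. For those pairs the bins restate the correlations as shares. ANGPTL4 had its lowest correlation with neither gene. From the bin with fewest to that with most PRG4 reads, the share of cells with ANGPTL2 went from 78.8% (76.4 to 81.0) through 67.9% and 60.5% to 53.2% (50.4 to 55.9). ANGPTL5 went from 31.6% (29.1 to 34.2) through 25.6% and 19.3% to 13.04% (11.3 to 15.0). ANGPTL1 went the other way, from 2.87% (2.03 to 3.93) through 4.65% and 5.74% to 8.31% (6.86 to 9.95). ANGPTL4 was in 5.27% (4.11 to 6.63) of the lowest and 10.02% (8.43 to 11.8) of the highest bin. For each of the 4 genes the lowest and the highest bin stood in that order under 4 of 4 tags. The intervals of these bins were apart under 4 tags for ANGPTL2, under 3 for ANGPTL5, and under 1 each for ANGPTL1 (A954) and ANGPTL4 (A951).

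By COL2A1, the main cartilage collagen, the order was turned. ANGPTL2 was in 55.7% (52.9 to 58.4) of the bin with fewest and 73.6% (71.1 to 76.0) of that with most COL2A1 reads, and ANGPTL5 in 12.2% (10.4 to 14.1) and 31.7% (29.1 to 34.3). ANGPTL1 was in 10.4% (8.77 to 12.2) of the lowest and 1.94% (1.26 to 2.85) of the highest bin. Under A953, where it was most frequent, those shares were 16.5% and 2.45%. ANGPTL4 was in 8.75% (7.27 to 10.4) and 4.89% (3.78 to 6.22), with 14.3% and 3.14% under A951 but 5.33% and 5.15% under A954. Here the intervals were apart under 4 tags for ANGPTL5, under 3 each for ANGPTL1 and ANGPTL2, and under 1 for ANGPTL4.

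**Figure D5:**
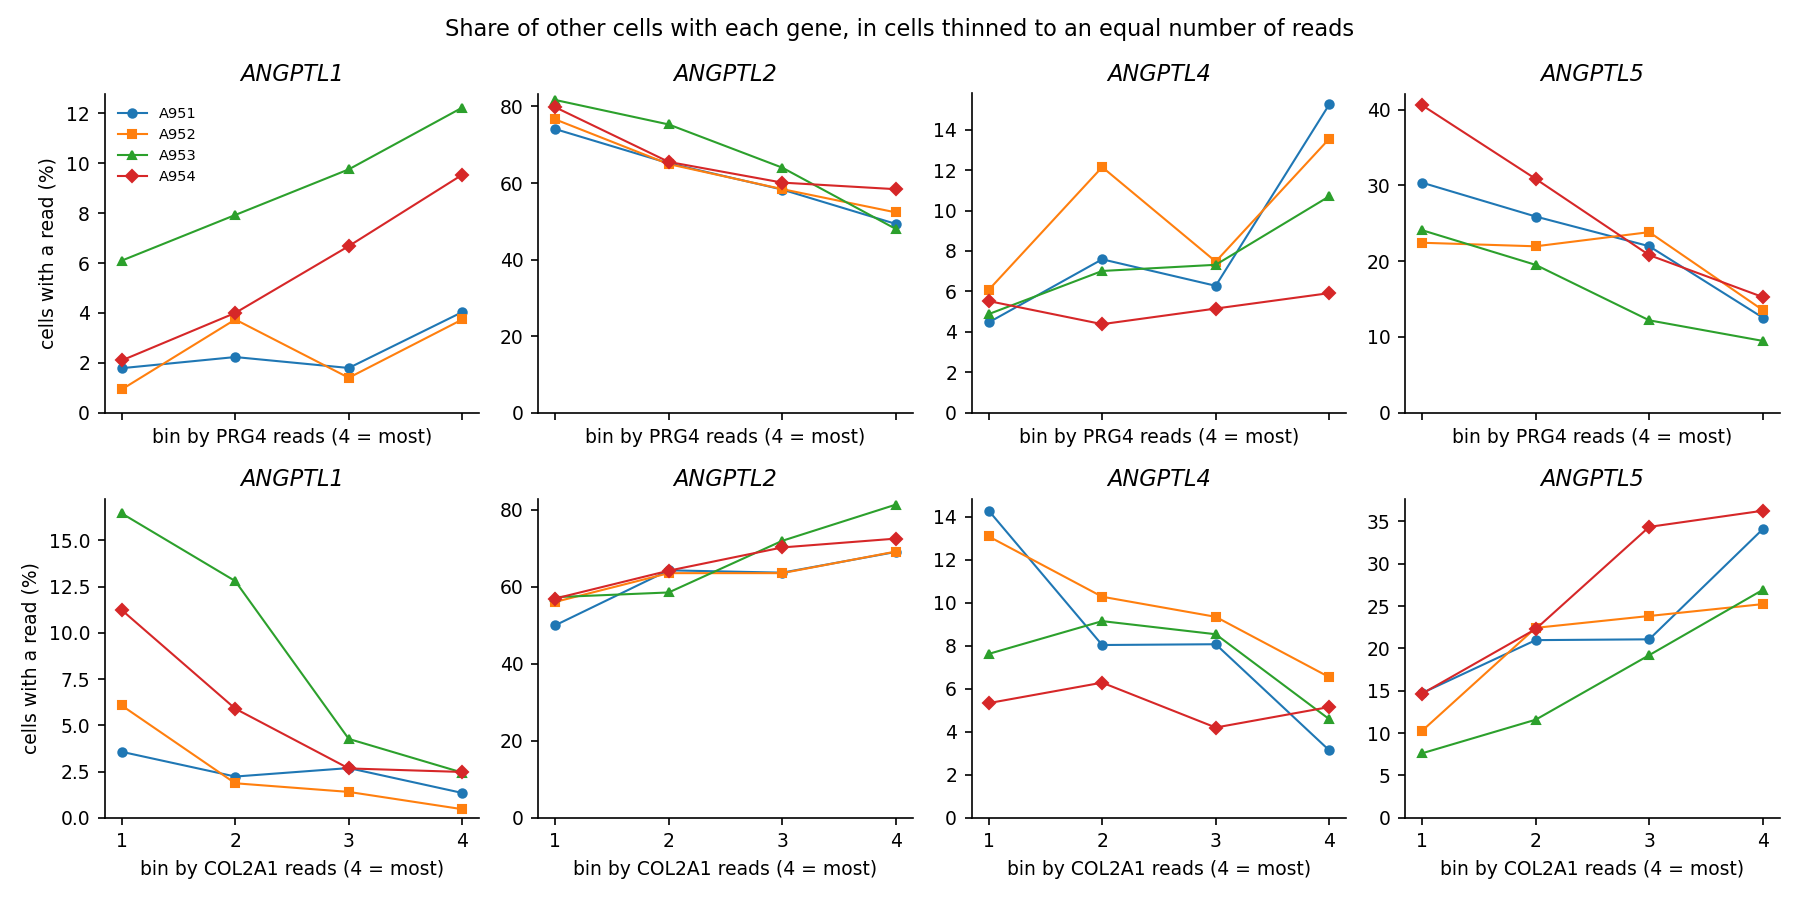
Share of other cells with at least 1 read of a gene (y axis, %) in cells thinned to 50000 reads, by bin of the cells ranked within each tag by PRG4 (upper row) or COL2A1 reads (lower row, x axis; 4 holds the most reads), 1 line per tag. ANGPTL2 and ANGPTL5 were in fewer cells and ANGPTL1 in more cells of the highest than of the lowest PRG4 bin under each tag, and the reverse order was seen with COL2A1, with overlapping intervals for some tags.

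The genes whose levels varied most like a member's from cell to cell were read from the median over the 4 tags of Pearson's r in thinned other cells, across 8680 genes. These are correlations over cells of 1 library and all are weak. ANGPTL2 was nearest to CNMD, chondromodulin, an inhibitor of vessel growth in cartilage (r = 0.26, from 0.20 to 0.31 by tag), then to PCOLCE2, which enhances collagen processing, and to CHAD, a cartilage matrix protein, FGFBP2 and CCDC80 (r = 0.21 each). ANGPTL5 was nearest to CHAD (r = 0.19), COL9A1, a type IX collagen chain (r = 0.19) and CNMD (r = 0.19), followed by CLEC3A, a cartilage lectin, and SPARC, a matrix protein (r = 0.18 each). PRG4 had the lowest r with both, -0.26 for ANGPTL2 and -0.16 for ANGPTL5. ANGPTL1 was nearest to CD74, the class II invariant chain, with r = 0.24 but a range by tag from -0.03 to 0.27. CRTAC1, a cartilage matrix protein, followed with r = 0.19 (0.05 to 0.23), then ASPN, asporin, with r = 0.16 (0.13 to 0.20), with HYAL1, a hyaluronidase (r = 0.15), and DKK3 (r = 0.14) next, and COL2A1 had the lowest r of -0.18. ANGPTL4 was nearest to COL1A2, a type I collagen chain (r = 0.15), CP, ceruloplasmin (r = 0.14) and PER1, a clock gene that glucocorticoids induce (r = 0.12), with PFKFB4, a regulator of glycolysis, and COL1A1 next (r = 0.11 each). The lowest r by tag was 0.04 for COL1A2, 0.04 for PER1, 0.02 for PFKFB4 and 0.03 for COL1A1, and with all reads in place of thinned ones NELL2, C2 and ID1 took the places of PER1, PFKFB4 and COL1A1 among the 5 nearest. With all reads, CLEC3A also took the place of CHAD for ANGPTL2, and ISLR that of DKK3 for ANGPTL1. For ANGPTL5, MATN2 and PCOLCE2 took the places of COL9A1 and SPARC. For ANGPTL7 the likeness is not given, as only 13 of the thinned other cells held a read.

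ANGPTL1 was counted beside ASPN, a small proteoglycan of fibrous cartilage, and CRTAC1, both taken from the genes nearest to it, so that the shares restate those correlations. It was in 9.31% (8.05 to 10.7) of other cells with an ASPN read and 3.06% (2.49 to 3.71) of those without. The order was the same under A951 (4.48% against 1.79%), A952 (5.88% against 1.38%), A953 (12.6% against 6.28%) and A954 (9.22% against 2.66%), with overlapping intervals under A951 (2.17 to 8.09 and 0.927 to 3.10). With CRTAC1 the shares were 7.01% and 2.11%, and the intervals overlapped under A951 (2.70% and 2.13%) and A952 (3.44% and 0.901%). ANGPTL4 was in 6.55% and 7.45% of cells with and without ASPN, ANGPTL2 in 65.9% and 64.6%, and ANGPTL5 in 19.6% (17.9 to 21.5) and 24.1% (22.6 to 25.6).

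Other genes of the families were sparse. ANGPTL6 was at 0.288 rpm in NCs and 3.39 rpm in other cells, a log2 ratio of -3.56, with 63 other cells and 1 NC at 5 or more reads. ANGPTL8 was not analysed here. Of the angiopoietins, ANGPT2 was at 6.87 rpm in NCs and 1.29 rpm in other cells (log2 ratio 2.42), from 10 NCs and 36 other cells, and ANGPT1 at 4.19 and 5.44 rpm. The receptor genes TEK and TIE1 and the ligand ANGPT4 had 5 or more reads in 6, 1 and 1 cells.

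Sets of genes around the members were listed and counted by the 2-fold mark. Over all genes, 25.7% were at least 2-fold higher and 14.4% at least 2-fold lower in NCs. Of 11 tested genes of the lipase axis, 1 was higher and 2 were lower by that mark, with a median log2 ratio of 0.63. LPL, lipoprotein lipase and the target of ANGPTL4, was at 46.9 rpm in NCs and 88.4 rpm in other cells, with log2 ratios of 0.28 within A951 and -1.84 within A952. FURIN and PCSK5, proteases that cleave secreted proteins, had log2 ratios of -2.06 and -2.43, and PCSK7 had 1.64. Of 7 tested candidate receptors, 1 was higher and 0 were lower, against 25.7% and 14.4% of all genes. That gene was VLDLR, a lipoprotein receptor, at 67.9 against 4.14 rpm. CDH11, a cadherin, and SDC4, a syndecan, came next with log2 ratios of 0.74 and -0.55. Within A951 and A952 these were -0.22 and 0.59 for CDH11, and -1.01 and -0.35 for SDC4. The integrin chains ITGA5 and ITGB1 had ratios of -0.01 and -0.18, but ITGA5 had -1.11 within A951 and 0.05 within A952.

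Of 19 hypoxia genes, 5 were higher and 1 was lower, with a median of 0.33. The share higher was near the 25.7% of all genes. ADM, a peptide hormone, had a ratio of 4.11, CA12, a carbonic anhydrase, of 3.29, and PFKFB3, a regulator of glycolysis, of 2.62. These 3 had the largest ratios of the list, and CA12 had 5.47 within A951 and 1.37 within A952. The lower gene was CA9, another carbonic anhydrase, with -1.01, and -1.08 and -0.90 within A951 and A952. The remaining genes had ratios on both sides of 0. ANGPTL4, itself known as a hypoxia target, had -3.03. Of 15 genes of PPAR and glucocorticoid response, 5 were higher and 1 was lower, with a median of 0.50, beside 25.7% and 14.4% of all genes. PLIN2, a lipid droplet coat protein, was at 48.2 against 8.21 rpm, and PER1 at 252.1 against 64.2 rpm. PPARG, the adipose PPAR, was at 20.1 against 1.01 rpm, but its ratio within A951 was -0.25. PPARD had -1.12. Over all 11617 genes the median was 0.29, and over the receptors it was 0.05.

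Markers of other cell types were looked at beside the members, and their counts stand against 25.7% of all genes at least 2-fold higher and 14.4% at least 2-fold lower in NCs. The 7 endothelial markers in the table summed to 4.57 rpm in NCs and 3.89 rpm in other cells, with VWF the most abundant, and 5 of the 7 were below the filter. The 5 haematopoietic markers summed to 20.5 and 20.0 rpm, with CD68 the most abundant and AIF1 at 0 in NCs. CD68 was at 9.64 rpm in NCs and 17.4 rpm in other cells, while LYZ was at 5.21 against 0.714 rpm and CD3E at 4.39 against 1.05 rpm. The 5 mural markers summed to 144.6 and 53.3 rpm, led by ACTA2 in NCs and CSPG4 in other cells, with 2 of the 5 (ACTA2 and RGS5) at least 2-fold higher and 2 (MCAM and MYH11) at least 2-fold lower in NCs. RGS5 had a log2 ratio of 1.49 over all tags, but 0.22 within A951 and 0.98 within A952, both short of 2-fold. The lead of ACTA2 came from A952 (log2 ratio 4.26), while within A951 its ratio was -2.38 and CSPG4 led in NCs with 108.3 rpm. The 3 adipocyte markers summed to 7.07 and 3.92 rpm, nearly all PLIN1. Of 3 bone markers, SPP1 was at least 2-fold higher in NCs (log2 ratio 2.08) and IBSP and BGLAP were lower. SPP1 had 0.88 within A951, short of 2-fold, and 2.17 within A952. Of 2 tested tendon and annulus markers, THBS4 was lower (-4.94) and MKX had -0.66. No red cell marker passed the filter. The part of such cells in the levels of ANGPTL genes was not tested.

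In the RefSeq table of the T2T-MFA8v1.1 assembly, ANGPTL1 lies within the span of RALGPS2, ANGPTL2 within RALGPS1 and ANGPTL7 within MTOR, while ANGPTL4 and ANGPTL5 overlap no other gene. The build of the count matrix is not given in the sources used here, and reads had been counted by strand over whole genes. The host genes were also counted. MTOR had a log2 ratio of 0.69 over all tags, but -0.38 within A951 and 0.34 within A952. In thinned cells it was in 4.44% (0.543 to 15.1) of NCs with ANGPTL7 and 15.0% (10.8 to 20.0) of those without. RALGPS2 was in 20.1% (15.6 to 25.3) of other cells with ANGPTL1 and 31.6% (30.3 to 32.9) of those without, and in 47.4% (24.4 to 71.1) and 42.9% (36.99 to 48.9) of NCs. RALGPS1 and RALGPS2 had log2 ratios of 0.90 and 0.88. Within A951 and A952 these were 0.97 and 1.03 for RALGPS1, and -0.02 and 0.77 for RALGPS2. RALGPS1 was in 12.95% and 11.2% of other cells with and without ANGPTL2.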

How the data were processed

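Cells of AC and NP were tagged by sample, sorted as live cells, pooled and sequenced as 1 TAS-seq library. The authors deposited read counts per gene and cell (unit: counts, whole numbers, not normalised). Per the submitters' processing notes, reads were aligned with HISAT2 2.2.1 and counted with featureCounts 2.0.2. By the study's methods counting was by strand over whole genes, introns included. Multi-mapping reads were kept, a read over several genes went to the one with the largest overlap, and reads of near-identical genes may be uncertain. The genome build is not given in the sources used here. The 42 columns marked as doublets by tag and 7 without a tag were left out, no doublet caller was run, and doublets of 1 tag remain. No barcode number was used more than once among tagged cells, and 15 numbers also occur in a second matrix of 1358 columns, which was not used. Tagged cells held 1344177214 reads, 24907 to 1649566 per cell (median 198094), and by tag 211627370, 232149845, 335842583 and 564557416 reads.

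Counts were pooled over the cells of a class and divided by the class's reads (rpm). A class under 3 reads was set to 3 reads in ratios. Genes with 5 or more reads in at least 10 cells were kept for ratios. A gene can pass this filter through 1 class alone, so ranks among the genes kept are descriptive. Shares have 95% Clopper-Pearson intervals, the limit beside a count of 0 is 3 cells of the total, and levels exact Poisson intervals of reads. Cells were thinned to 50000 reads, which left out 11 NCs and 205 other cells. Likeness used log2(rpm + 1) over genes present in at least 5% of cells. As the library is 1 pool and cells are not replicates, no test was run. Members, gene lists and measures were chosen with earlier results of these data known. The named genes are the 5 members, the family, angiopoietin and host lists, the 3 of largest ratio in each other list, the reference genes and markers, and the 5 genes most like a member. Genes named beyond these (LPL, PPARD, ITGA5, ITGB1, CA9) were chosen after their values were seen. Alternatives were other limits on cells, other NC rules, presence cut-offs of 1 and 10 reads, thinning, other scalings, and leaving out a tag or the highest cell. Some genes of the family and host lists are not reported here. The planned comparison of member proteins was not run. Python 3.11.15, numpy 2.4.6, scipy 1.17.1 and pandas 2.3.3 were used, and the scripts were tested on simulated data.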

Additional observations from a re-analysis of the deposited data

Results flagged for a closer look

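ANGPTL1 had opposite signs under the tags A951 and A952: its log2 ratio of NCs over other cells was 3.75 within A951 and -0.37 within A952. The difference was not tested, as each tag is part of 1 library. The A951 value rests on 8 NCs with 5 or more reads, of which 2 held 50% of the reads.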

How the results depend on the processing

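No paired analysis was possible because the cells form 1 library, so that no test was run, and ratios within a tag are given as values. Among the 5 members, ANGPTL4, ANGPTL5 and ANGPTL7, whose ratios were at least 2-fold, kept their sign under each alternative run. For ANGPTL7 the log2 ratio was 10.2 with NCs defined by either gene and 10.4 against other cells under 5 reads of both. Both comparison groups lack the 6 other cells with 5 or more ANGPTL7 reads. It was 6.28 with 20 or more reads of both genes required of an NC, and 1.18 as a difference of mean log2(rpm + 1). On that last scale, which weights the many cells at 0, ANGPTL2, ANGPTL4 and ANGPTL5 were at -1.33, -0.35 and -1.30. With NCs defined by either gene, ANGPTL4 and ANGPTL5 were at -1.07 and -2.55. ANGPTL4 was at -4.13 without the highest cell of each class, and ANGPTL2 at -0.86 relative to the median gene. Of 65 values of the ratio under alternatives, 53 moved by less than 1 SD of the ratios within A951 and A952. That SD rests on 2 values per gene and ran from 0.24 for ANGPTL2 to 2.91 for ANGPTL1. The count therefore does not measure how stable the ratios are. For ANGPTL1, with 13 of the 53, that SD is too wide for the comparison to say anything.

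Leaving out 1 tag at a time gave log2 ratios from -0.90 (without A951) to 1.82 (without A952) for ANGPTL1, from -0.78 to -0.39 for ANGPTL2, from -4.72 (without A952) to -2.73 for ANGPTL4, from -5.08 to -4.37 for ANGPTL5 and from 6.55 (without A954) to 8.66 (without A952) for ANGPTL7. Shares of NCs then ran from 2.47% (without A951) to 12.2% (without A952) for ANGPTL1, from 35.1% to 39.9% for ANGPTL2, from 1.35% to 1.65% for ANGPTL4, from 0% to 0.823% for ANGPTL5 and from 12.8% to 17.6% for ANGPTL7. Those of other cells ran from 2.86% to 4.44%, 54.7% to 57.1%, 4.32% to 5.62%, 15.2% to 20.3% and 0.0671% to 0.187%.

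With 1 or more reads as presence, shares in NCs were 10.6%, 65.8%, 6.45% and 13.5% for ANGPTL1, ANGPTL2, ANGPTL4 and ANGPTL5, and in other cells 10.98%, 78.0%, 12.5% and 31.8%, with 0.932% for ANGPTL7. With 10 or more reads, other cells had 3.02%, 52.1% and 16.1% for ANGPTL1, ANGPTL2 and ANGPTL5. In cells thinned to 50000 reads and 5 or more reads as presence, the shares were 1.78%, 48.1% and 11.7% for the same genes in other cells, and 32.1% and 10.4% for ANGPTL2 and ANGPTL7 in NCs. The highest over the lowest tag for ANGPTL7 in other cells, on the log2 scale, was 5.16, and 3.92 without the highest cell under each tag. At the 4-fold mark 1116 genes were higher and 843 lower in NCs, against 2985 and 1674 at the 2-fold mark. Relative to the median gene, 2193 were at least 2-fold higher and 2161 lower. Few NCs under A953 and A954, and reads without molecular identifiers, limit all values.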
